A study of Homo sapiens with 10 samples.

Results

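The comparison described here is between HS-SY-II cells kept for 96 h and for 12 h with 100 nM WA-68, read over all genes. It holds 4 of the 10 libraries of the series, 2 biological replicates at each time, chosen by their labelled time and treatment. HS-SY-II is an established human synovial sarcoma line, and WA-68 is labelled as a PROTAC degrader of BRD9. The other 6 libraries are 2 each of cells with WA-68 for 24 h, with WA-68 for 48 h and with DMSO vehicle. In the test they entered only the filter on low counts, the scaling and the estimate of the spread. Their levels are also given beside some genes and for the path between 12 and 96 h. All 4 libraries compared carried the drug at the same dose, so the fold changes use no DMSO value. No untreated culture is labelled as kept for 96 h, and when the DMSO cultures were harvested is not stated. Hours of exposure and hours in culture therefore cannot be told apart in this comparison.

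BRD9 is a bromodomain protein of the non-canonical BAF complex, a chromatin remodeller that also holds BICRA or BICRAL and SS18. In synovial sarcoma a translocation fuses SS18 to an SSX gene, and the fusion protein enters BAF complexes and changes where they sit on chromatin. A PROTAC joins its target to an E3 ubiquitin ligase, so that the target protein is degraded while its mRNA need not change. Early transcript changes after such a degrader and those that build up over days can be compared only where the times are set against each other, which is the question this comparison addresses.

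At 12 h replicate 1 held 8900937 counts in genes and replicate 2 held 8556353, and at 96 h they held 10401147 and 7349744. Levels are in CPM, TMM-scaled counts relative to library size, and changes are log2 fold changes of 96 h against 12 h with their standard error (SE). The synovial sarcoma markers SS18, SSX1, TLE1, BCL2, FZD10, CD99 and TWIST1 were measured in all 4 libraries, with summed levels of 1280 and 1240 CPM at 12 h and of 1440 and 1450 CPM at 96 h. Of 7 leukocyte markers 5 had no count in these libraries, as did 4 of 5 endothelial and 3 of 4 myogenic markers. The WA-68 library farthest from the rest was replicate 2 of 96 h. Its score on the second principal component (16.4% of the variance) was -26 and that of DMSO replicate 2 was -24.2, against -0.71 to 14.4 for the rest. Its mitochondrially encoded transcripts held 10.9% of counts, against 7.38% in replicate 1 of 96 h and 6.79% and 6.97% at 12 h. Values without this library are given beside the main results.

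Between the harvests 391 of 16382 genes tested were higher and 285 were lower in edgeR's quasi-likelihood test at an adjusted p under 0.05. Those are 2.39% and 1.74% of the genes tested, 4.13% in all, and the median log2 fold change over all genes was -0.01. These shares are the background for the counts of every gene list below. Changes were small for most genes called, with a median size of 0.56 on the log2 scale for the rises and 0.48 for the falls. At least a 2-fold difference was reached by 54 of the rises and by 12 of the falls. Mucin genes, adhesion molecules, axon guidance genes, HOX genes and parts of the Wnt pathway supplied rises and few or no falls. Histone genes, ribosomal protein genes and glycolytic genes supplied falls and few or no rises. Without replicate 2 of 96 h the counts were 238 higher and 204 lower, and 206 and 147 of these were among the genes called with it. Without replicate 1 of 12 h they were 99 and 52, and without replicate 2 of 12 h 109 and 96. Leaving out DMSO replicate 1 gave 585 and 532, and leaving out DMSO replicate 2 gave 585 and 531. The p-values reflect how far labelled biological replicates of this 1 line differed, pooled over the 5 groups.

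**Figure D1:**
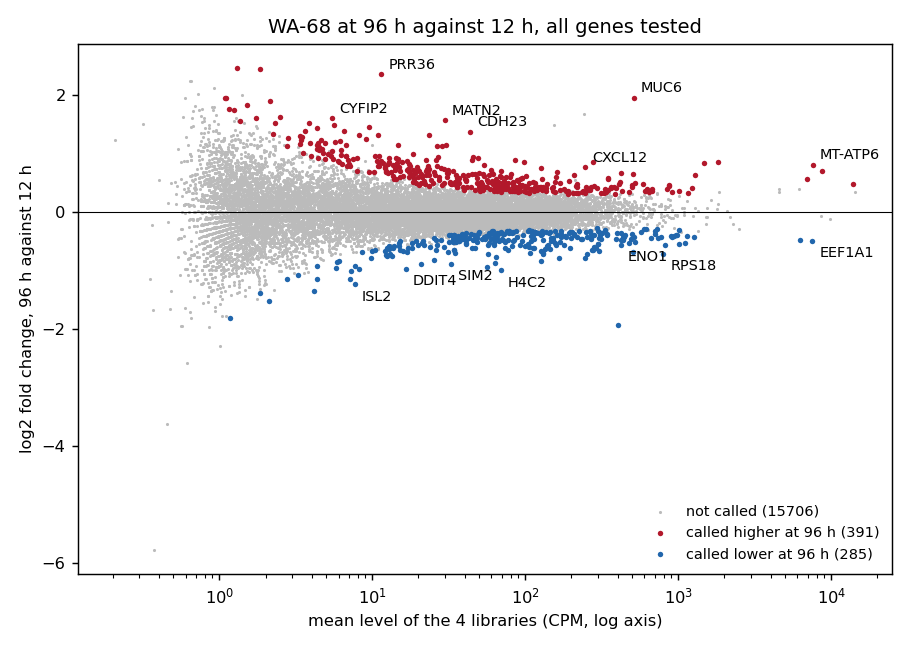
Each point is a tested gene, with its mean level over the 4 libraries on a log axis in CPM and its log2 fold change of 96 h against 12 h. Red points are the 391 genes called higher and blue points the 285 called lower. MUC6 stands out at high counts, and EEF1A1 and MT-ATP6 are at the right edge.

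MUC6 had the smallest adjusted p of all genes and the second largest rise of the 12 that the naming rule took. It encodes a gel-forming secreted mucin of gland epithelia. Its level was 218.3 and 202.5 CPM in the 12 h libraries and 715.4 and 905.8 CPM in the 96 h libraries. Both 96 h libraries lay far above both 12 h libraries, a 3.85-fold difference (log2 fold change 1.95, SE 0.11, adjusted p = 9.13e-11). At the times between, its mean was 328 CPM at 24 h and 596 CPM at 48 h, and the DMSO libraries held 205.6 and 222.5 CPM. The log2 fold change was 1.77 without replicate 2 of 96 h. MUC6 lies on chromosome 11 at 1012821 to 1036706 (GRCh38), and 2 neighbouring mucin genes were called with it. MUC2 (1074875 to 1110511) stood at 5.59 and 5.17 CPM at 12 h and at 12.4 and 13.2 CPM at 96 h (log2 change 1.25, SE 0.18, adjusted p = 0.000226). MUC5B (1223066 to 1262172) stood at 4.47 and 5.17 CPM at 12 h and at 7.68 and 10.5 CPM at 96 h, with an adjusted p of 0.047. The MUC5B call was lost without either 12 h library. It was also lost without replicate 2 of 96 h, when the MUC5B log2 fold change was 0.67. The fourth gel-forming mucin of this cluster, MUC5AC, had a log2 fold change of 0.84 and was not called (adjusted p = 0.181). Of 11 measured genes of epithelial junctions, keratins and mucins these 3 rose and none fell, with a median of 0.81. CDH1 and EPCAM, which define epithelial cells, held 2 counts each over the 4 libraries. The keratin genes KRT8 (0.50) and KRT18 (1.19) held 34 and 46 counts and were not called. In bulk RNA, more cells that express a gene and more of its RNA per cell cannot be told apart.

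The largest rise that the rule took was that of PRR36, a gene of proline-rich protein of little known function, at 4.36 and 2.99 CPM at 12 h and 15.3 and 23.1 CPM at 96 h. That is a log2 fold change of 2.35 (SE 0.24, adjusted p = 4.84e-06), and 2.05 without replicate 2 of 96 h. MATN2, which encodes the matrix protein matrilin-2, went from 17 and 13 CPM to 46.0 and 42.7 CPM (log2 fold change 1.56, SE 0.16, adjusted p = 3.75e-06). CDH23, an atypical cadherin known from the tip links of hair cells, went from 26.8 and 21.9 CPM to 64.5 and 61.0 CPM (1.36, SE 0.12, adjusted p = 2.56e-07). For these 3 genes, as for MUC6, the lowest 96 h value was above the highest 12 h value by more than the gap between replicates of either time. CYFIP2, a subunit of the actin-regulating WAVE complex, stood at 2.68 and 2.64 CPM at 12 h, at a mean of 3.11 CPM at 48 h and at 7.12 and 9.26 CPM at 96 h. Its rise therefore fell mostly in the last interval, while MUC6, MATN2 and CDH23 had risen in part by 48 h. The other rises among the 12 were those of CA4, a membrane-bound carbonic anhydrase, MEGF11, NPIPB5, EPN3, MUC2, NGFR, the low-affinity neurotrophin receptor, and EDAR, the receptor of ectodysplasin. Their log2 fold changes ran from 1.21 for EDAR to 1.48 for CA4. NPIPB5 belongs to a family of near-identical copies, so its counts are uncertain. MEGF11, NGFR and EDAR lost their call without replicate 2 of 12 h, and the other 9 kept theirs without each library in turn. CXCL12, a chemokine ligand of CXCR4, was outside the 12 but was evenly measured, at 189.4 and 175.9 CPM at 12 h and 309.4 and 310.1 CPM at 96 h (log2 change 0.76, SE 0.09, adjusted p = 1.96e-05).

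**Figure D2:**
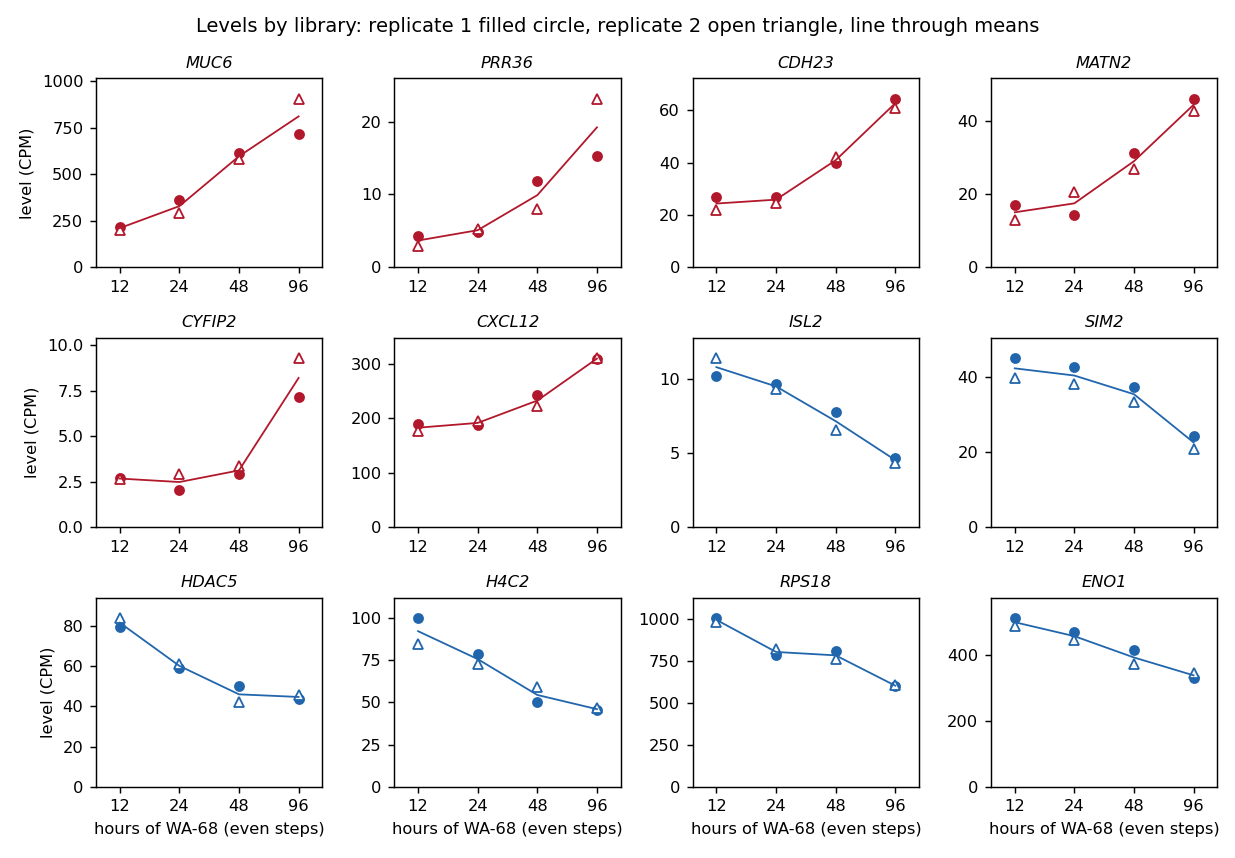
Level in CPM (vertical axis) of 12 named genes in each WA-68 library at 12, 24, 48 and 96 h, at even steps on the horizontal axis; filled circles are replicate 1, open triangles replicate 2, and lines join group means. Rises such as MUC6 (to 715.4 and 905.8 CPM) and falls such as ISL2 (to 4.68 and 4.35 CPM) have both 96 h libraries outside both 12 h libraries. The naming rule required this of the largest rises and falls.

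The largest fall that the rule took was that of ISL2, a LIM homeobox factor of motor neuron development. It stood at 10.2 and 11.4 CPM at 12 h and at 4.68 and 4.35 CPM at 96 h (log2 change -1.24, SE 0.20, adjusted p = 0.000628). SIM2, a basic helix-loop-helix PAS factor, went from 45.1 and 39.8 CPM to 24.4 and 20.8 CPM (-0.90, SE 0.12, adjusted p = 0.00014). HDAC5, a class IIa histone deacetylase, stood at 79.4 and 83.9 CPM at 12 h and at 43.6 and 45.8 CPM at 96 h (-0.87, SE 0.11, adjusted p = 2.99e-05). It had reached a mean of 46.0 CPM by 48 h, and the DMSO libraries held 51.5 and 60.4 CPM. NR4A1, an immediate early nuclear receptor, differed widely within 12 h at 7.71 and 12.1 CPM, against 4.87 and 3.79 CPM at 96 h. Its call (adjusted p = 0.00636) was lost without replicate 2 of 12 h. DDIT4, a stress-induced inhibitor of mTORC1, went from 19.3 and 24.5 CPM to 11.3 and 10.8 CPM (-0.98, SE 0.17) and also depended on replicate 2 of 12 h. The remaining falls among the 12 were those of the histone genes H4C2 and H4C1, TMEM160, the acid-sensing channel gene ASIC4, the collagen gene COL6A6, the small nucleolar RNA SNORD3B-2 and FOXP1-IT1. FOXP1-IT1, with an adjusted p of 0.0462, kept its call in only 3 of the 10 fits that left out a library. ASIC4 kept it in 7 and COL6A6 in 8. A single library set the value of RN7SL3, a signal recognition particle RNA outside the rule, which stood at 1094 CPM in replicate 1 of 12 h and at 178.3, 152.9 and 179.5 CPM in the other 3 libraries. It was named after its values were seen.

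The transcripts of the drug's target and of its partners in the complex were not called, apart from SSX1. BRD9 stood at 95.6 and 92.8 CPM at 12 h and at 88.2 and 89.2 CPM at 96 h, a log2 change of -0.09 (SE 0.09, adjusted p = 0.657). BICRAL, one of the paralogues that define the BRD9 complex, was at -0.01 (adjusted p = 0.953), and SS18 at 0.15 (adjusted p = 0.361). BICRA, the other paralogue, had a log2 fold change of 0.38 and missed the threshold (adjusted p = 0.107). BICRA was at 0.23 without replicate 2 of 96 h. SSX1, which supplies the other part of the fusion in some tumours, stood at 41.7 and 46.8 CPM at 12 h and at 57.2 and 56.0 CPM at 96 h. Its call (0.36, adjusted p = 0.0451) was kept in 2 of the 10 fits without a library, and SSX genes are near-identical copies of each other. Of 28 measured BAF subunits none was called in edgeR or in DESeq2. In edgeR 7 of the 28 had an unadjusted p under 0.05, against 2927 of all 16382 genes tested. In edgeR 3 were higher without replicate 1 of 96 h, 3 in a fit to only the 8 WA-68 libraries and 3 with an offset for GC content. ARID1A, the subunit with the most counts, was at 0.21 (adjusted p = 0.265). Of 35 Polycomb subunits 2 rose, against 2.39% of all genes tested. They were EZH1 (0.38) and BCORL1 (0.41), both kept in 4 of 10 fits. These mRNA levels do not measure BRD9 protein.

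Replication-dependent histone genes, which are transcribed in S phase and whose mRNAs mostly end in a stem-loop in place of a poly(A) tail, gave the deepest fall of any list described here. Of 52 measured, 32 fell and none rose, with a median log2 fold change of -0.52. All classes took part, with falls in 4 of 4 linker H1 genes, 7 of 12 H2A, 8 of 14 H2B, 7 of 10 H3 and 6 of 12 H4 genes. H4C2 stood at 99.8 and 84.5 CPM at 12 h and at 45.5 and 46.5 CPM at 96 h (2.01-fold lower, adjusted p = 4.84e-06). H3C10 went from 173.4 and 152.5 CPM to 89.2 and 93.3 CPM (-0.84, SE 0.11, adjusted p = 5.05e-05). The summed level of the 52 genes was 8607 and 7670 CPM at 12 h, 5529 and 5191 CPM at 48 h, and 4964 and 6308 CPM at 96 h. Both 96 h sums lay below both 12 h sums, and replicate 2 of 96 h was the higher of its pair. Without that library 43 histone genes fell, with a median of -0.72, and without replicate 1 of 96 h 24 fell, with a median of -0.35. Without replicate 1 of 12 h, 14 fell. The 48 h libraries were already below the 24 h libraries, where 15 histone genes were called lower, against a background of 0.562% of genes called lower between those times. The libraries were made by poly(A) selection, so these levels count the reads that this selection let through, and histone paralogues share near-identical coding sequence that can split or mix their counts.

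The promoters of 2 histone genes that fell are shown because they carry the octamer, a motif known from H2B promoters. They were chosen after their values were seen. Each is the 250 bases before the RefSeq gene start (GRCh38.p14), 5′ to 3′ on the gene's strand, and the capitals mark the octamer ATTTGCAT, which was searched on both strands.
H2BC8, chr6:26216689-26216938, minus strand: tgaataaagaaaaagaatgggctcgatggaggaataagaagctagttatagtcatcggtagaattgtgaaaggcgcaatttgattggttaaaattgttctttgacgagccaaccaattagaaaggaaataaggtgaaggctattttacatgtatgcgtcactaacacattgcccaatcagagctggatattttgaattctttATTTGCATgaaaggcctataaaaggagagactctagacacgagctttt
H2BC11, chr6:27132796-27133045, minus strand: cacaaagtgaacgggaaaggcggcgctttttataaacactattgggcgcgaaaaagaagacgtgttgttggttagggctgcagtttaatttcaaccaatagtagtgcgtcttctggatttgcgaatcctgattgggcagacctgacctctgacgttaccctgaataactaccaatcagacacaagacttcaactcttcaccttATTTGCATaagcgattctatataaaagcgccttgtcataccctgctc
In both the motif begins close to the start, 48 bases before it in H2BC8 and 47 in H2BC11. H2BC8 stood at 175.8 and 152.6 CPM at 12 h and at 97.6 and 114.5 CPM at 96 h, and H2BC11 at 100.4 and 77.2 CPM against 56.5 and 59.2 CPM. The octamer was found in 11 of 14 H2B and 9 of 11 H2A promoters in the RefSeq table, in 1 of 8 H3 promoters, and in none of 10 H4 or 4 H1 promoters. It was present in 1.8% of all 27305 promoters. These octamer counts were made over the full windows of the RefSeq table, which also run past the gene start, beyond the bases shown. Classes with and without the motif both fell. Of the 52 histone genes 47 had a promoter in the table.

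**Figure D3:**
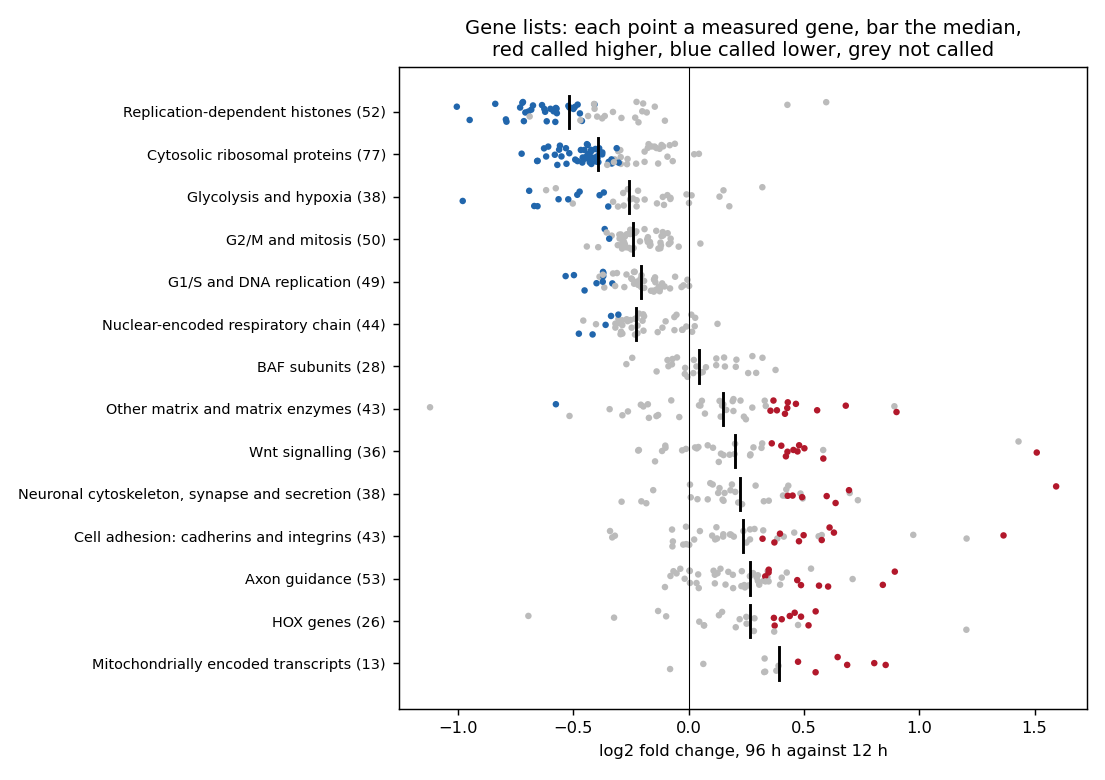
Log2 fold change of 96 h against 12 h (horizontal axis) for each measured gene of 14 lists (rows, number measured in brackets); red is called higher, blue called lower, grey not called, and the black bar is the median. Histone and ribosomal protein genes lie mostly left of 0, with medians of -0.52 and -0.39, and mitochondrially encoded transcripts mostly right of it.

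Other genes of S phase moved less. Of 49 G1/S and DNA replication genes 9 fell and none rose, with a median of -0.21. MCM2, a subunit of the replicative helicase, stood at 182.3 and 159.2 CPM at 12 h and at 115.2 and 127.3 CPM at 96 h (-0.50, SE 0.10, adjusted p = 0.00382). TK1, the S-phase thymidine kinase, went from 74.2 and 61.8 CPM to 45.1 and 49.2 CPM (-0.53, SE 0.11, adjusted p = 0.0044). TYMS and RRM2, which supply deoxynucleotides, fell by 0.40 and by 0.37 on the log2 scale. All 4 lost their call without replicate 1 of 12 h, and without that library none of the 49 was called. Without replicate 2 of 12 h 5 fell, without replicate 1 of 96 h 6, and without replicate 2 of 96 h 4. Of 50 G2/M and mitosis genes 2 fell, against 1.74% of all genes tested, although 49 of 50 had a negative value and the median was -0.24. The 2 were the kinesin genes KIF2C (-0.36) and KIF4A (-0.34). Neither call held without a 12 h library, while 4 of the 50 fell without replicate 1 of 96 h, 15 in a fit to only the 8 WA-68 libraries and 18 with an offset for GC content. Their path was not stepwise. At 24 h the median of this list lay 0.15 above 12 h in log2(CPM + 1), and its differences at 48 h and 96 h were -0.32 and -0.23. Between 24 and 48 h 34 of the 50 were called lower. CDKN1A, the CDK inhibitor p21, rose from 17.8 and 15.97 CPM to 28.8 and 29.3 CPM (0.78, SE 0.13, adjusted p = 0.00103) and kept its call without each library in turn. It was joined by PLK2 and TIGAR among 22 measured p53 targets, against 2.39% of all genes tested called higher. None of the 22 was called lower, and their median was 0.10. PLK2 lost its call without either 12 h library and TIGAR without replicate 2 of 12 h, and 1 of the 22 fell without replicate 1 of 96 h. CDK4 fell by 0.33 on the log2 scale, a call kept in 2 of 10 fits. Of 23 genes of the BCL2 family and apoptosis none was called in edgeR or DESeq2. In edgeR 4 of the 23 had an unadjusted p under 0.05, against 2927 of all 16382 genes tested.

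Ribosomal protein genes fell as a broad and shallow group. Of 77 measured, 49 fell and none rose, with a median of -0.39 and values from -0.72 to 0.05. The large subunit gave 27 falls of 44 genes and the small subunit 21 of 31. RPS18, a protein of the small subunit, stood at 1002 and 982 CPM at 12 h and at 596.1 and 605.8 CPM at 96 h (-0.72, SE 0.08, adjusted p = 7.36e-06). RPL13A, of the large subunit, went from 1199 and 1190 CPM to 825.9 and 797.6 CPM (-0.56, SE 0.08, adjusted p = 0.000181). Replicates of each time lay within a few percent of each other for both genes. The times did not overlap, as in 284 of the 285 genes called lower and 48.8% of all genes tested. The summed level of the 77 genes was 39280 and 39000 CPM at 12 h and 28720 and 31560 CPM at 96 h. With replicate 2 of 96 h left out 58 fell, and with replicate 1 or replicate 2 of 12 h left out 14 or 23 did. Leaving out replicate 1 of 96 h gave 36 falls and a median of -0.32. The step between 24 and 48 h was flat, with a median of -0.02 and none of the 77 called there by edgeR at an adjusted p. Their fall lay in the intervals from 12 to 24 h (-0.16) and from 48 to 96 h (-0.20). Ribosomal protein genes have many processed pseudogenes, and how reads with several matches were counted is not given in the sources used here.

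Genes that share the translation machinery moved with them only in part. EEF1A1, the elongation factor that brings tRNA to the ribosome, stood at 8948 and 8648 CPM at 12 h and at 6079 and 6338 CPM at 96 h (-0.50, SE 0.07, adjusted p = 0.000205). EEF1B2 (-0.46) and EIF5A (-0.34) were the other 2 falls among 38 translation factors, against 1.74% of all genes tested. The median of the 38 was -0.11. EEF1B2 lost its call without replicate 1 of 12 h and EIF5A without any 1 of the 4 libraries. Without replicate 1 of 12 h 1 of the 38 fell, without replicate 2 of 12 h or replicate 1 of 96 h 2, and without replicate 2 of 96 h 5. MYC and ribosome biogenesis genes, 43 of them measured, gave no call in edgeR or DESeq2, with a median of -0.09. In edgeR 7 of the 43 had an unadjusted p under 0.05, against 2927 of all 16382 genes tested. NCL, which encodes nucleolin, was at -0.09, and POLR1A, the largest subunit of RNA polymerase I, at 0.01. Among 24 chaperone genes 3 fell, against 1.74% of all genes tested. HSPD1, HSP90AA1 and CCT8 fell by 0.34, 0.30 and 0.33 on the log2 scale. All 3 lost their call without replicate 2 of 96 h and also without either 12 h library. Of 38 lysosome and autophagy genes 4 fell, against 1.74% of all genes tested. They were RRAGD, ATP6V1H, HEXA and NEU1. They too lost their calls without replicate 2 of 96 h and without either 12 h library. In the integrated stress and unfolded protein response HSPA5, the main chaperone of the endoplasmic reticulum, rose by 0.32 on the log2 scale. This call was kept in 4 of 10 fits and was the only 1 among 35 genes, against 4.13% of all genes tested.

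Glycolytic and hypoxia-responsive genes fell in 11 of 38 cases with no rise, and their median was -0.26. ENO1, the glycolytic enolase, stood at 511.8 and 487.5 CPM at 12 h and at 330.1 and 346.5 CPM at 96 h (-0.56, SE 0.09, adjusted p = 0.000556). PGK1, phosphoglycerate kinase, went from 356.5 and 373.0 CPM to 263.8 and 262.1 CPM (-0.47, SE 0.08, adjusted p = 0.00144). HK2, a hexokinase, was less even at 12 h, with 31.9 and 44.5 CPM against 22.8 and 24.7 CPM at 96 h. LDHA, lactate dehydrogenase, went from 369.1 and 404.3 CPM to 297.4 and 294.7 CPM (-0.39, adjusted p = 0.00792). The glucose transporter genes SLC2A1 and SLC2A3 and the enzyme gene PGAM1 also fell, as did PDK1, BNIP3, BNIP3L and DDIT4, known targets of hypoxia-inducible factor. Other steps and targets were not called, among them PFKP (0.00), PKM (-0.08), GAPDH (-0.33), VEGFA (0.32), ADM (0.18) and NDRG1 (-0.01). Replicate 2 of 12 h was the higher 12 h library for HK2, PGK1, LDHA and DDIT4, and without it 1 of the 38 fell. With replicate 1 of 12 h or of 96 h left out 7 fell, and with replicate 2 of 96 h left out 9 fell and 1 rose. In DMSO, ENO1 stood at 591.4 and 682.3 CPM and DDIT4 at 38.9 and 51.2 CPM, above all 4 libraries compared.

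The promoters of 2 of these genes are shown because they hold the core of the hypoxia response element. They too were chosen after their values were seen. Capitals mark ACGTG on either strand, where an overlap of both strands reads CACGTG, in the 250 bases before the RefSeq gene start (GRCh38.p14).
PGK1, chrX:78103998-78104247, plus strand: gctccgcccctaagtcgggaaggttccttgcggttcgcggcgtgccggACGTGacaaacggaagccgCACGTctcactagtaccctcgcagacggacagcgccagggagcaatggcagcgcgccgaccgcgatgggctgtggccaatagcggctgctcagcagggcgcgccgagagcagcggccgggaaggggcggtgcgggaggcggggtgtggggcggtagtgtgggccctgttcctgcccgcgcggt
LDHA, chr11:18394313-18394562, plus strand: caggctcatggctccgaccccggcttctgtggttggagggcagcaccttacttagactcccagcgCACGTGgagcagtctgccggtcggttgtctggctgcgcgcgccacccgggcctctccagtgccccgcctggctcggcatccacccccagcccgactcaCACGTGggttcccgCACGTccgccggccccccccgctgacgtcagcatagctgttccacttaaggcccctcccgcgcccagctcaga
The PGK1 window holds 2 matches and the LDHA window 5, counting both strands. Of 34 genes of the list with a RefSeq promoter 15 held the core, 44.1%, and 5 of the 9 that fell and had a promoter did. The same letters were found in 21.6% of all 27305 promoters. These shares were counted over the full windows of the RefSeq table, which also run past the gene start, beyond the bases shown. A match describes the letters and is no measure of binding.

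Transcripts of the respiratory chain differed by the genome that encodes them. Of 44 nuclear-encoded subunits 5 fell and none rose, with a median of -0.23. ATP5F1B, the catalytic beta subunit of ATP synthase, stood at 608 and 533 CPM at 12 h and at 424 and 397 CPM at 96 h (-0.48, SE 0.09, adjusted p = 0.00152), a call lost without replicate 1 of 12 h. The other 4, UQCRQ, COX4I1, COX6C and ATP5F1A, fell by 0.30 to 0.42 on the log2 scale. Of the 44 none fell without replicate 1 of 12 h and 1 without replicate 2 of 12 h, and 3 fell with either 96 h library left out. Of 13 mitochondrially encoded transcripts 6 rose and none fell, with a median of 0.39. MT-ATP6, a subunit of the membrane part of ATP synthase, stood at 5397 and 5607 CPM at 12 h and at 7162 and 12060 CPM at 96 h (0.80, SE 0.13, adjusted p = 0.000628). MT-ND5, a complex I subunit, stood at 6496 and 6890 CPM at 12 h and at 8535 and 13030 CPM at 96 h. Replicate 2 of 96 h, which stood apart on the second principal component, was the higher of its pair by far, and the sizes rest on it. Without it 4 of the 13 rose and 1 fell, the median was 0.11, MT-ATP6 was at 0.38 and MT-ND5 at 0.35. Without replicate 1 of 96 h 12 rose. Summed over the 13, replicate 1 of 96 h held 71070 CPM, above 67420 and 68140 CPM at 12 h and below 87190 and 83170 CPM at 48 h. The part of RNA quality or of the state of that culture in these values was not tested.

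Several lists of cell surface and signalling genes held rises and few falls. In the Wnt pathway, where secreted ligands act through Frizzled receptors and feed back through their own targets, 10 of 36 genes rose and none fell, with a median of 0.20. LGR5, a receptor for R-spondins, stood at 125.3 and 129.3 CPM at 12 h and at 194.2 and 187.3 CPM at 96 h (0.58, SE 0.10, adjusted p = 0.000721). Its relative LGR6 had few counts, at 2.12 and 1.84 CPM at 12 h and 5.71 and 5.61 CPM at 96 h (1.51, SE 0.28, adjusted p = 0.00195). FZD10, a Frizzled receptor known from synovial sarcoma, went from 352 and 328 CPM to 476 and 472 CPM (0.48, SE 0.09, adjusted p = 0.00216). The feedback targets AXIN2 (0.42), NKD1 (0.40), NKD2 (0.47) and NOTUM (0.45) rose, and so did WNT16, ROR1 and TLE2. In each of LGR5, LGR6 and FZD10 the times did not overlap, as in all 391 genes called higher and 48.8% of all genes tested. In DMSO, LGR5 stood at 184.4 and 165.5 CPM and LGR6 at 4.90 and 4.96 CPM, below both 96 h values and above both 12 h values. Of the 36 genes 6 rose without replicate 2 of 96 h.

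Axon guidance genes, ligands and receptors that steer growing axons and that many other tissues also express, rose in 9 of 53 cases and fell in none. Of the 53, 47 had a positive value, and the median was 0.27. The receptors were EPHB2 (0.60), ROBO2 (0.57), EPHA4 (0.49) and UNC5B (0.35), and the secreted ligands were SLIT2, SLIT3, SEMA3B and SEMA3F. NTNG2, a membrane-anchored netrin, was the other. EPHB2 stood at 43.8 and 41.2 CPM at 12 h and at 61.2 and 68.6 CPM at 96 h (adjusted p = 0.00161). SLIT2 stood at 524 and 537 CPM at 12 h and at 630 and 721 CPM at 96 h (0.35, SE 0.09, adjusted p = 0.0214), a call lost without either 12 h library and without replicate 2 of 96 h (0.25). Without replicate 2 of 96 h 4 of the 53 rose, and the median was 0.22. Cadherins, integrins and related adhesion genes rose in 9 of 43 cases with no fall, among them CDH23, the large protocadherin relative FAT3 (0.61), CDH4 (0.63) and CADM4 (0.58). CDH4 held 163 and 162 CPM at 12 h and 223 and 280 CPM at 96 h, and was at 0.46 without replicate 2 of 96 h. CDH23, FAT3 and CDH4 were the 3 that rose without replicate 2 of 96 h.

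Neuronal genes rose in 7 of 38 cases with no fall and a median of 0.22. MAP2, a dendritic microtubule protein, stood at 63.2 and 55.8 CPM at 12 h and at 89.4 and 90.9 CPM at 96 h (0.60, SE 0.09, adjusted p = 0.000394). RBFOX3, the splicing factor NeuN, went from 64.1 and 61.1 CPM to 87.2 and 108 CPM (0.64), and SHANK1, a postsynaptic scaffold, from 24.9 and 26.2 CPM to 39.2 and 43.9 CPM (0.70). MAP2, RBFOX3, SHANK1 and CYFIP2 kept their calls without each library in turn. Of the neuronal markers, ELAVL4 had no count in these libraries, while TUBB3 (0.49) and SNAP25 (0.33) were measured and not called. In DMSO, MAP2 stood at 33.9 and 34.4 CPM, RBFOX3 at 84.3 and 91.3 CPM and SHANK1 at 37.5 and 44.7 CPM. The DMSO values of MAP2 lay below all 4 libraries compared, and those of RBFOX3 and SHANK1 above both 12 h libraries and in or near the range of the 96 h libraries.

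Matrix genes changed in both directions. Of 43 genes of the non-fibrillar matrix and its enzymes 10 rose and 1 fell, with a median of 0.15. SULF2, an extracellular enzyme that trims sulfate from heparan sulfate chains, stood at 133.4 and 113.9 CPM at 12 h and at 193.5 and 203.3 CPM at 96 h (0.68, SE 0.10, adjusted p = 0.000186). Its relative SULF1 rose by 0.90 on the log2 scale. Among laminins, the basement membrane proteins, LAMB2 (0.56), LAMA5 (0.43) and LAMB1 (0.38) rose and LAMA1 fell (-0.57, SE 0.11, adjusted p = 0.00225). Among 22 fibrillar collagens and their processing genes COL5A1 rose from 350.3 and 340.6 CPM to 492.7 and 488.6 CPM (0.51, SE 0.09, adjusted p = 0.00124). COL1A1 rose (0.40) and COL3A1 fell (-0.32), calls kept in 7 and in 2 of 10 fits and not without replicate 2 of 96 h. Of the 22, 2 rose and 1 fell, against 2.39% and 1.74% of all genes tested. PDGFRA, a receptor of mesenchymal cells, fell from 42.0 and 41.4 CPM to 28.1 and 24.4 CPM (-0.66, SE 0.11, adjusted p = 0.00103). It was the only 1 called of 22 mesenchymal regulators and cytoskeletal genes, against 4.13% of all genes tested.

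Of 36 genes of receptor kinases, FGF and ERK feedback 5 rose and none fell, with a median of 0.18, and 2 rose without replicate 2 of 96 h. FGFR1, an FGF receptor, stood at 504 and 482 CPM at 12 h and at 668 and 696 CPM at 96 h (0.47, SE 0.08, adjusted p = 0.00139), a call lost without replicate 2 of 12 h. FGFR2, KIT, SPRED3 and PHLDA1 were the others. In TGF-beta and BMP signalling 4 of 30 rose, against 2.39% of all genes tested. They were the ligands BMP5 (0.84) and TGFB1 (0.45), the BMP antagonist GREM1 (0.42) and LTBP3 (0.37). LTBP3 stores latent TGF-beta in the matrix. Without replicate 2 of 96 h BMP5 and GREM1 were the 2 still called. NOTCH1 (0.37) and its target HEYL (0.96) were the 2 rises among 25 Notch and Hedgehog genes, against 2.39% of all genes tested. Neither was called without replicate 2 of 96 h.

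The counts of rises in these lists were smaller without a 12 h library. With replicate 1 or replicate 2 of 12 h left out, 3 or 2 Wnt genes rose, as did 2 axon guidance genes in either case, 3 adhesion genes in either case and 4 neuronal genes in either case. For the non-fibrillar matrix list the counts were 2 and 3, for receptor kinases, FGF and ERK feedback 1 and 1, and for TGF-beta and BMP signalling 0 and 0. SULF1, SULF2, LGR5, LGR6, EPHB2, CDH23, CDH4, FAT3 and COL5A1 kept their calls in each of the 10 fits that left out a library. Among genes named in the text, calls lost without replicate 2 of 96 h included those of SSX1, BCORL1, FOXP1-IT1, RRM2, KIF2C, KIF4A, CDK4, UQCRQ, COX4I1, ATP5F1A, HSPA5, TLE2, CADM4, SPRED3, KIT, HOXB4, PRIM2 and WDPCP.

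HOX genes, which set position along the body axis and lie in 4 clusters, rose in 8 of 26 measured cases with none lower, and their median was 0.27. The calls lay in 2 clusters, with 4 of 9 measured HOXB genes on chromosome 17 and 4 of 9 HOXC genes on chromosome 12, and none of 8 HOXD genes. No HOXA gene was measured. HOXC12 (chromosome 12, 53954834 to 53958956, GRCh38) stood at 423.8 and 444.9 CPM at 12 h and at 572.1 and 646.2 CPM at 96 h (0.49, SE 0.10, adjusted p = 0.00374). HOXC4 went from 54.7 and 63.9 CPM to 84.6 and 85.5 CPM (0.52, SE 0.10, adjusted p = 0.00216). HOTAIR, the non-coding RNA between HOXC11 and HOXC12 and antisense to the cluster, went from 59.0 and 67.9 CPM to 105.2 and 85.3 CPM (0.59, adjusted p = 0.00139). HOTAIR was named after its values were seen, and the strand setting of the counting is not given in the sources used here. On chromosome 17 HOXB3 stood at 176.6 and 188.0 CPM at 12 h and at 247.8 and 246.3 CPM at 96 h (0.44, SE 0.09, adjusted p = 0.00496), and HOXB4, HOXB5 and HOXB6, which overlap or adjoin it, rose by 0.37 to 0.55. Without replicate 2 of 96 h 3 of the 26 rose, without replicate 1 of 12 h none did, and without replicate 2 of 12 h 5 did. H19, an imprinted non-coding RNA, rose from 985 and 1047 CPM to 1364 and 1765 CPM (0.62, SE 0.10, adjusted p = 0.000812). Its log2 fold change was 0.43 without replicate 2 of 96 h. H19 was the only 1 called of 13 measured long non-coding RNAs in its list, against 4.13% of all genes tested. Of the 13, 11 had a negative value, and the median was -0.13.

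The 24 h and 48 h libraries, which neither side of the comparison uses, were read for the path between. Of the 391 genes higher at 96 h than at 12 h, 367 (93.9%) were also higher at 48 h than at 24 h in group means. Of the 285 lower genes, 250 (87.7%) were also lower. Over all tested genes with a positive or negative value the shares were 59.9% and 61.2%. Between 24 and 48 h edgeR called 0.195% of all genes higher and 0.562% lower, and 27 of the 391 and 26 of the 285 were among them, with none called the opposite way. The mean rose at each step from 12 through 24 and 48 to 96 h in 282 of the 391 genes (72.1%), and fell at each step in 184 of the 285 (64.6%), against 16.9% and 16.6% of all genes with the same sign. Those last shares use the 12 h and 96 h values that chose the genes. The lists differed in their paths. Histone genes had a median of -0.61 against 12 h in log2(CPM + 1) at 48 h and of -0.50 at 96 h. The order of those times rests on replicate 2 of 96 h, since the histone sum of replicate 1 (4964 CPM) lay below both 48 h sums. G1/S and DNA replication genes were also lowest at 48 h, at -0.12 at 24 h, -0.34 at 48 h and -0.20 at 96 h. Glycolytic genes lay at -0.04 at 24 h, -0.09 at 48 h and -0.25 at 96 h. Axon guidance genes moved from 0.02 to 0.11 and 0.25, and HOX genes from 0.06 to 0.17 and 0.24.

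**Figure D4:**
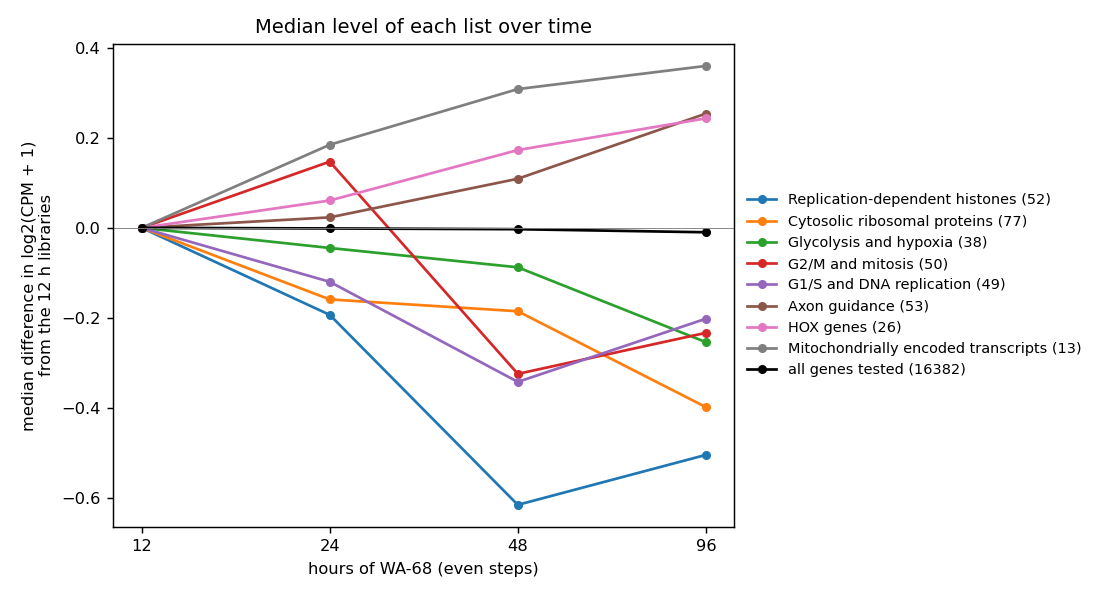
Median difference in log2(CPM + 1) from the 12 h libraries (vertical axis) for 8 gene lists and all genes tested at 12, 24, 48 and 96 h of WA-68, at even steps; numbers in brackets are genes measured. The median of all genes stays near 0, and HOX and axon guidance genes are highest at 96 h. Histone, G1/S and G2/M genes are lowest at 48 h (for histones only through replicate 2 of 96 h).

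Rises and falls differed from each other in features that the test did not use. Genes that rose had a median GC content of 55.8% and a median transcript length of 4317 bases. Genes that fell had 48.0% and 2315 bases, and all tested genes 48.4% and 3158 bases. Across 15694 genes the log2 fold change and GC content had a Spearman correlation of 0.18, a description over genes that are not independent. GC content also differed between replicates of several groups. At 96 h there was a correlation of 0.289 between it and the difference of replicate 2 from replicate 1, against -0.059 at 12 h, -0.167 at 24 h, -0.292 at 48 h and 0.571 in DMSO. With an offset for GC content the correlation was 0.01, and edgeR called 722 genes higher and 759 lower, among them 390 of the 391 and all 285. The part of GC content in the remaining differences was not tested further. Just inside the threshold lay WDPCP (-0.49) and PRIM2 (-0.37). Genes just outside it were RPL14 (-0.30), PCLAF (-0.56) and PBK (-0.41).

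**Figure D5:**
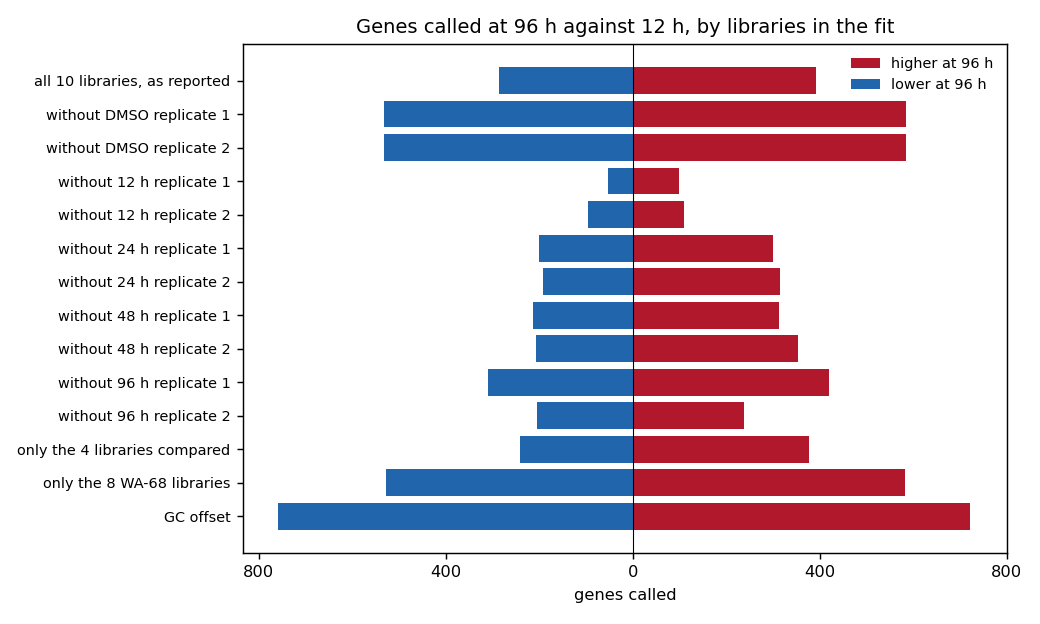
Number of genes called higher (red, to the right) and lower (blue, to the left) at 96 h against 12 h in the reported fit, in fits without each library in turn, in fits on fewer groups and with a GC offset. Without a 12 h library the counts are smallest (99 and 52, and 109 and 96), and without a DMSO library they are larger than the 391 and 285 reported.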

How the data were processed

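The deposited table holds raw read counts per gene, whole numbers with no normalization by the authors. Per the labels' protocols the libraries were stranded poly(A) libraries read as paired ends. The submitters' processing notes name bcl2fastq, FastQC, Trim Galore, cutadapt, STAR, featureCounts and build GRCh38. Versions, annotation release and strand setting are not stated there. The 10 libraries held between 7349744 and 13200051 counts. Genes kept by edgeR's filterByExpr, 16382, were fitted in edgeR 4.0.16 (R 4.3.3) with 1 mean per group over all 10 libraries, TMM scaling and a quasi-likelihood test, with 5 residual and 18.5 prior degrees of freedom. The common biological coefficient of variation was 7.17%, and p-values were adjusted over all genes tested (Benjamini-Hochberg), with calls under 0.05. The script was tested on simulated data. DESeq2 1.42.0 and limma 3.58.1 served as alternatives. GENCODE annotation of GRCh38 gave positions, and RefSeq gave promoters, taking the first start of a gene.

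Named genes are BRD9, BICRA, BICRAL, SS18 and SSX1, the 12 largest rises and falls among called genes of at least 5 CPM whose times did not overlap, up to 4 called members of each of 42 gene lists (the 2 most abundant where none was called) and 3 genes on each side of the threshold. Further list members are named by their calls. The comparison, the lists and the rule were chosen with earlier results of these data known. Not every gene that the rule takes is described.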

Additional observations from a re-analysis of the deposited data

How the results depend on the processing

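No called gene named by the rule reversed its direction under any alternative run. Of those 116 genes, 42 were called in every fit that left out a library, as were 61 of all 391 rises and 39 of all 285 falls. Some named genes that were not called and lay near 0 changed sign, such as POLR1A (0.01, and -0.06 without replicate 2 of 96 h). Leaving out a library gave 99 to 585 genes higher and 52 to 532 lower. The lowest counts came without a 12 h library and the highest without a DMSO library, and where a compared time is left with 1 library that library is assumed to vary like the other groups. Only the 8 WA-68 libraries gave 582 and 527, a GC offset 722 and 759, no filter on low counts 534 and 336, DESeq2 319 and 209, library size alone 325 and 283, upper-quartile factors 436 and 240, and an adjusted p under 0.01 170 and 117. Against a 1.5-fold change (glmTreat) 5 genes were called higher and 0 lower, and 54 and 12 of those called at an adjusted p under 0.05 differed by at least 2-fold. The labels do not say whether a replicate number marks a shared culture or day. Same-numbered deviations at 12 h and 96 h had a correlation of -0.0224. Over all pairs of groups it ran from -0.123 (DMSO and 48 h) to 0.186 (DMSO and 96 h). With 1 difference per group, these values cannot decide whether libraries were paired. A replicate block gave 348 and 248. The share of called genes, both directions together, whose 48 h mean lay on the same side of 24 h was 91.27%. It was 88.4% with no filter, 93.94% with DESeq2, 100% for the glmTreat calls, 88.72% with a GC offset, 94.43% at an adjusted p under 0.01 and 86.36% for at least 2-fold, and ran from 85.28% to 96.69% over the fits without a library. The cause of these shifts was not tested. With 2 libraries at each time, changes of small size in genes of low count could go undetected at this depth.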
